A study of Mus musculus with 28 samples.

Results

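Ikzf2, Tbx2, Emx2, Nr2f1, Nr2f2, Bcl11b and Prdm16 are genes for transcription factors grouped here as regulators of hair cell (HC) subtype and bundle orientation. They were chosen by name, and all 7 were found among the 19421 genes of the deposited matrix of normalized counts. All 7 also passed the low-count filter (10 or more normalized counts in 2 or more libraries), as did 16837 genes in all. The question was how far each of these genes moved when Atoh1, Gfi1 and Pou4f3 were induced singly or together.

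Mouse embryonic stem cells (ESCs) derived from the A2Lox parental line carried doxycycline (Dox)-inducible cassettes ending in the fluorescent reporter mVenus. The lines induced Atoh1 (iAtoh1), Gfi1 (iGfi1), Pou4f3 (iPou4f3), Gfi1 and Atoh1 (iG+A), Gfi1 and Pou4f3 (iG+P), Pou4f3 and Atoh1 (iP+A), or all 3 factors (iGPA). Cells were differentiated as embryoid bodies (EBs), aggregates in which ESCs form many cell types, and all were harvested on day 6. Each of the 7 lines gave 2 Dox libraries and 2 No Dox libraries, and per the series record the 2 replicates of a line came from different clones. In the Dox groups, 2 µg/ml Dox was present for the last 48 h and Venus+ cells were sorted, whereas No Dox EBs were neither treated nor sorted. The effect of the transgenes and that of sorting therefore cannot be told apart within a line. Since these are bulk samples, fewer cells of a type and less RNA per cell cannot be told apart either.

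HCs are the mechanosensory cells of the inner ear. The cochlea holds inner HCs, which pass sound to the auditory nerve, and outer HCs, which amplify it, while vestibular organs sense head motion and gravity. Atoh1, Gfi1 and Pou4f3 act in all of them, and further factors then divide the subtypes: Ikzf2 (Helios) in outer HCs, Tbx2 in inner HCs, and Emx2 in the orientation of the hair bundle in part of the vestibular maculae. Nr2f1 and Nr2f2 encode the orphan nuclear receptors COUP-TFI and COUP-TFII, Bcl11b is a zinc finger factor best known from T cells and cortical neurons, and Prdm16 is a zinc finger factor known from brown fat and blood stem cells.

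Estimated depth was 30.4 to 48.0 M reads per library, with 17628 to 18074 genes above 0. Each line with Dox had its own factors at high levels. Atoh1 lay between 12816 and 21242 normalized counts in the Dox libraries of its 4 lines, Gfi1 between 8119 and 12487, and Pou4f3 between 4694 and 19883. Pou4f3 was lowest in iPou4f3 Dox, with 4694 and 5381 normalized counts against 17590 and 19883 in iG+P Dox, so lines with the same factor did not carry it at the same level. Factors outside a line's cassette also rose past the threshold, from and to much lower levels: Atoh1 in iGfi1 (2.04 on the log2 scale) and iG+P (2.70), to at most 32.5 normalized counts, Gfi1 in iPou4f3 (1.55) and iP+A (1.65), to at most 113, and Pou4f3 in iAtoh1 (2.21) and iG+A (3.11), to at most 101. Below, a line is called without a factor where its cassette lacks it. An untreated library stood apart: iP+A No Dox replicate 2 had a summed level of 11375 over 4 pluripotency markers, against 564 to 7483 in the other No Dox libraries, and values without it are given where they change a call. Of 6 general HC markers, 4 were higher with Dox past the threshold defined below in iGPA (Myo6, Otof, Espn and Lhx3), 3 in iG+A, 2 each in iP+A and iG+P, 1 in iPou4f3 and 0 in iAtoh1 and iGfi1, where limma gave 1 and 2 of 6 at an unadjusted p under 0.05.

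Tests were made with limma on log2(normalized count + 1), fitting all 14 groups together, and a gene is past the threshold where its Benjamini-Hochberg adjusted p is below 0.05 and its log2 fold change, up or down, is 1.5 or more. By this measure 5 of the 7 genes rose or fell in at least 1 line, where 25% of all tested genes did. Of 49 tests (7 genes in 7 lines), 12 were past the threshold. In iG+A 4 of the 7 passed (12.3% of all tested genes), in iGPA 3 (14% of all) and in iG+P 2 (10.5% of all). Single genes passed in iAtoh1 (1 of 7, 5.4% of all), iGfi1 (1 of 7, 4.82% of all) and iP+A (1 of 7, 7.29% of all). In iPou4f3 limma put 0 of 7 past the threshold (2.08% of all), with 2 of 7 at an unadjusted p under 0.05. The calls were spread unevenly over the genes. Nr2f1 rose in 4 lines, Nr2f2 and Bcl11b in 3 each, Tbx2 fell in iG+P, Emx2 fell in iG+A, and neither Ikzf2 nor Prdm16 passed in any line.

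**Figure D1:**
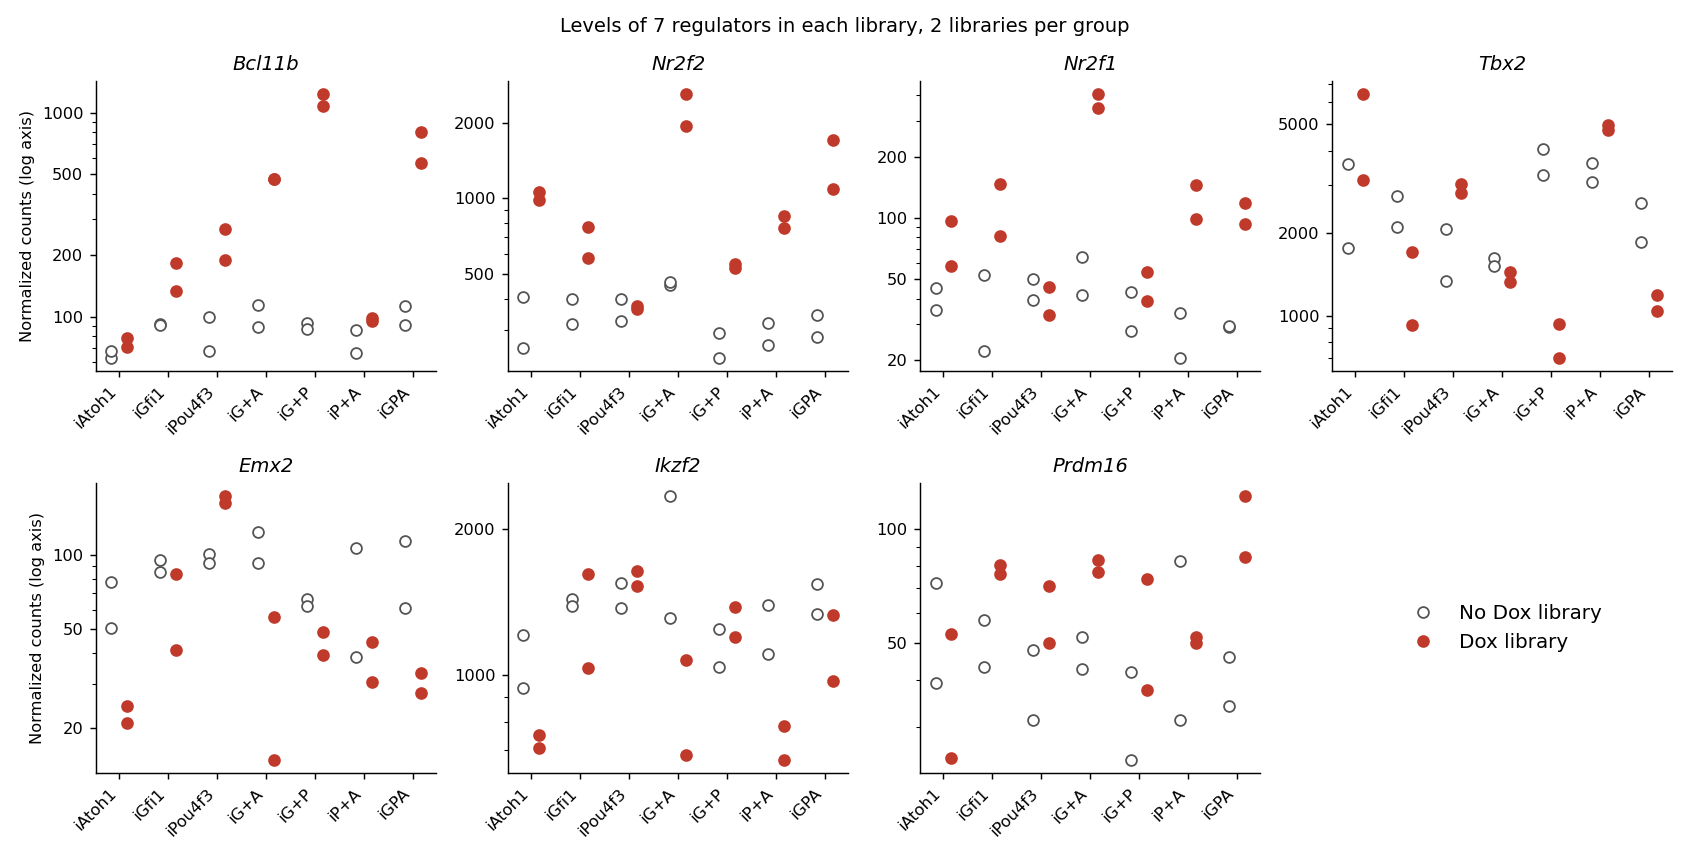
Normalized counts of the 7 genes (y axes, log scale) in each library of the 7 lines (x axes); open points are No Dox libraries and filled points Dox libraries, 2 per group. Bcl11b reached 1232 and 1081 in iG+P Dox and Nr2f1 reached 405 and 347 in iG+A Dox, while Ikzf2 stayed between 667 and 2336 in every library.

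Bcl11b, on the minus strand at chr12:109148613-109241812 (NCBIM37, the same assembly as mm9), had the largest change of the 7 genes. Untreated libraries held 62.6 to 114 normalized counts. With Dox it reached 1232 and 1081 in iG+P, 566 and 803 in iGPA, 474 and 471 in iG+A, 268 and 190 in iPou4f3, 184 and 134 in iGfi1, 98.7 and 95.2 in iP+A, and 78.7 and 70.9 in iAtoh1. No neighbouring pair of Dox groups in this order overlapped. In all 7 lines both Dox values were also above both No Dox values, although separation of the 2 groups in either direction was common. It held for 74.1% of all genes in iGPA, 68.4% in iG+P, 67.1% in iGfi1, 65% in iP+A, 64.8% in iG+A, 60.1% in iAtoh1 and 51.6% in iPou4f3.

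The rise of Bcl11b was past the threshold in every line that combined Gfi1 with another factor. The log2 fold change was 3.67 ± 0.24 (SE, adjusted p = 2.77e-09) in iG+P, where replicate 1 rose 13.2-fold and replicate 2 12.4-fold. It was 2.72 ± 0.24 (adjusted p = 4.74e-08) in iGPA and 2.22 ± 0.24 (adjusted p = 8.88e-07) in iG+A. In iPou4f3 the change of 1.44 ± 0.24 had an adjusted p of 0.00103 but missed the required size, and it passed without iPou4f3 No Dox replicate 1 (1.71) or Dox replicate 2 (1.69). Gfi1 alone gave 0.77 ± 0.24 (adjusted p = 0.0221). With Atoh1 alone the change was 0.20 (95% confidence interval -0.30 to 0.69), and with Pou4f3 and Atoh1 it was 0.35 (-0.15 to 0.85).

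T cell and neural markers were read beside Bcl11b. Of 3 T cell markers, Cd3e and Cd3g stayed under the count filter and were not tested. In iG+P Dox Cd3e was listed at 0 in both libraries and Cd3g at 0 and 2.18. The third, Lck, had 156 and 118 normalized counts there against 127 and 138 in No Dox. In iG+A, where Bcl11b also rose, Lck had 154 and 166 with Dox against 84.3 and 79.2 without (log2 fold change 0.96, adjusted p = 0.00517, short of the required size), and its part in the Bcl11b value was not tested. Of 6 neural markers 2 were higher with Dox in iG+P, where their summed level went from 309 and 430 to 1221 and 1781 normalized counts, 3 in iG+A and 4 in iGPA, but also 3 in iAtoh1 and 4 in iP+A, where Bcl11b did not pass. Their part in the Bcl11b values was not tested. Bcl11a, the close paralogue of Bcl11b, was past the threshold in none of the 7 lines, with log2 fold changes of 1.17 in iG+P, 0.34 in iGPA and -1.12 in iG+A.

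**Figure D2:**
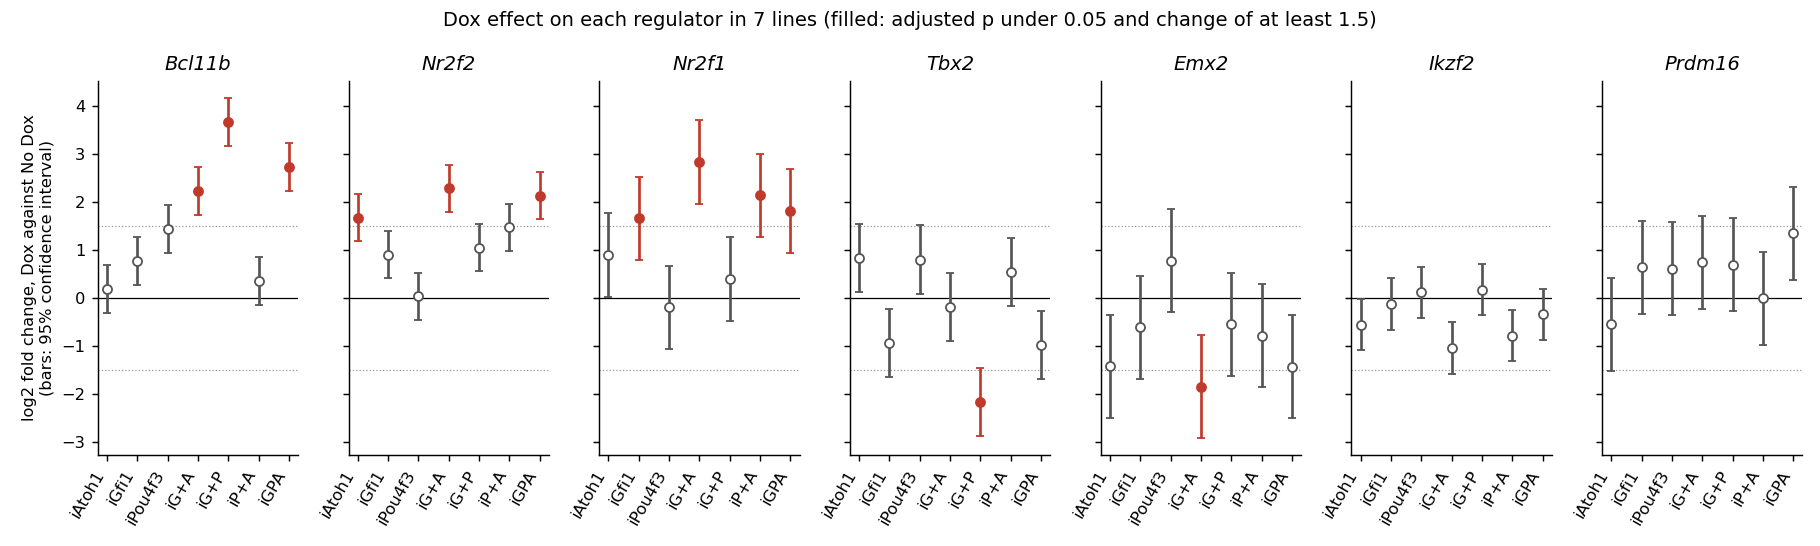
Log2 fold change of Dox against No Dox (y axis) for each gene (panels) in the 7 lines (x axis); bars are 95% confidence intervals, dotted lines mark 1.5 in either direction and filled points are past the threshold. Bcl11b is filled in iG+A, iG+P and iGPA, Nr2f1 in 4 lines, and no point is filled for Ikzf2 or Prdm16.

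Whether a further factor altered the Dox effect was tested as the difference between lines with and without it. Adding Gfi1 raised the Dox effect on Bcl11b on each of 3 backgrounds, which share no library. The difference was 2.03 ± 0.34 (SE, adjusted p = 0.000435) on Atoh1, 2.22 ± 0.34 (adjusted p = 0.000191) on Pou4f3 and 2.37 ± 0.34 (adjusted p = 0.000102) on Pou4f3 with Atoh1. On the Atoh1 background 2 of 7 genes differed past the threshold (6.87% of all tested genes), on Pou4f3 2 (7.63% of all) and on Pou4f3 with Atoh1 2 (7.6% of all). The level of Pou4f3 itself also differed between iG+P and iPou4f3 (above), and its part in the second difference was not tested.

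Adding Pou4f3 raised the Bcl11b effect on Gfi1, by 2.89 ± 0.34 (adjusted p = 4.13e-05, 1 of 7 genes past the threshold, 1.85% of all). It gave 0.50 on Gfi1 with Atoh1 (95% confidence interval -0.21 to 1.20) and 0.16 on Atoh1 (-0.55 to 0.86). In these last comparisons limma called 0 of 7 genes, against 2.2% and 2.78% of all, with 0 and 1 of 7 at an unadjusted p under 0.05. Adding Atoh1 had no call for Bcl11b. The estimate was 1.45 ± 0.34 on Gfi1 (adjusted p = 0.00427, just under the required size), -1.09 ± 0.34 on Pou4f3 (adjusted p = 0.0957) and -0.94 ± 0.34 on Gfi1 with Pou4f3 (adjusted p = 0.0653). The first of these passed without iG+A No Dox replicate 1 (1.63) or iGfi1 Dox replicate 1 (1.68). For adding Atoh1 limma called 0 of 7 on Gfi1 (8.54% of all), 1 of 7 on Pou4f3 (1.61% of all) and 0 of 7 on Gfi1 with Pou4f3 (5.9% of all), the counts at an unadjusted p under 0.05 being 3, 5 and 4. Comparisons that name the same line share its libraries.

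**Figure D3:**
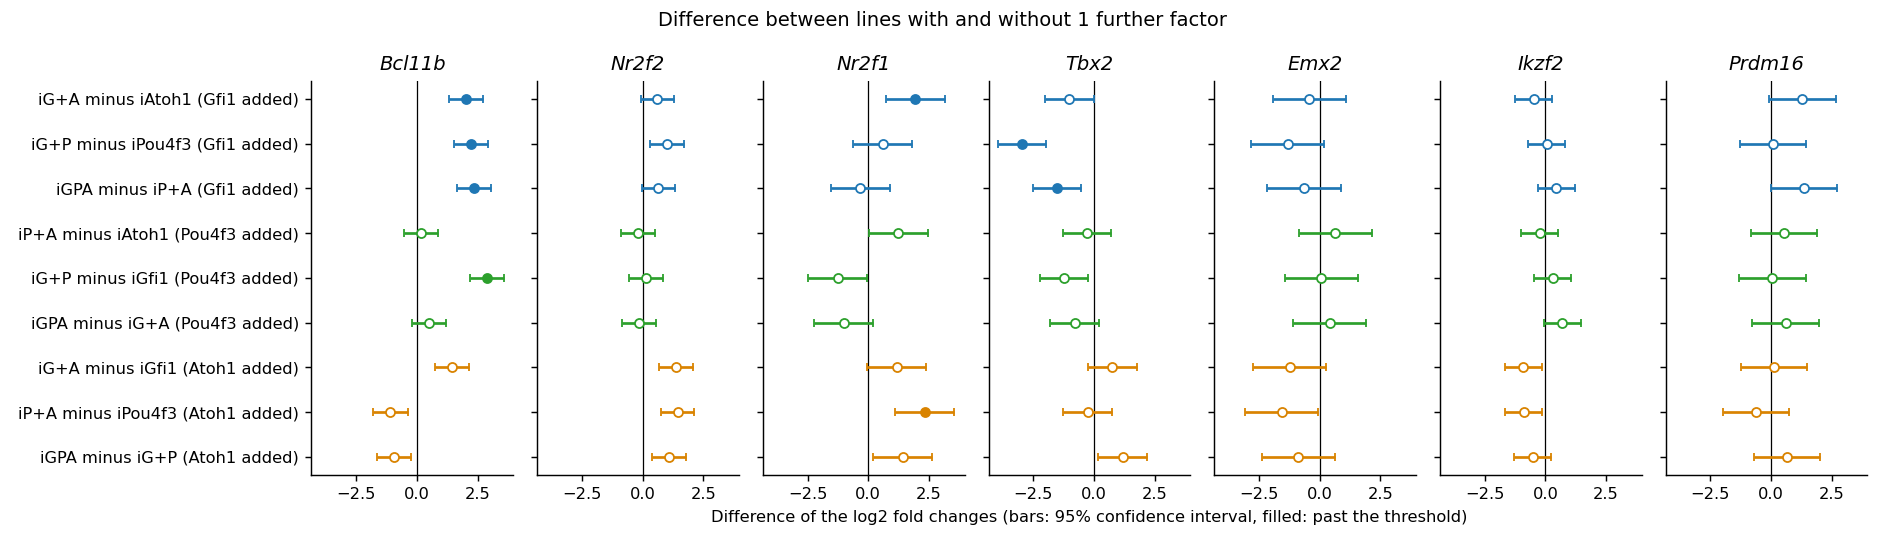
Difference of the log2 fold changes (x axis, bars are 95% confidence intervals) between lines with and without a further factor (y axis), for each gene; blue, green and orange stand for Gfi1, Pou4f3 and Atoh1 added, and filled points are past the threshold. All 3 blue points of Bcl11b are filled, at 2.03, 2.22 and 2.37.

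A comparison of combined lines with the summed log2 effects of their single factors was added after these values had been seen. For Bcl11b, iG+P exceeded the sum of iGfi1 and iPou4f3 by 1.45 (95% confidence interval 0.58 to 2.31, adjusted p = 0.186) and iG+A exceeded the sum of iGfi1 and iAtoh1 by 1.26 (0.39 to 2.12, adjusted p = 0.0712). In iP+A it fell short of the sum by -1.29 (-2.15 to -0.42, adjusted p = 0.183), and in iGPA the departure was 0.31 (-0.69 to 1.31). limma called 0 of 7 genes in each of the 4 comparisons, against 0.208% of all genes in iG+P, 2.99% in iG+A, 0.422% in iP+A and 2.65% in iGPA. At an unadjusted p under 0.05 the counts in that order were 2, 1, 1 and 1 of 7. With the replicate number as a block, the number of all genes called went from 504 to 762 in iG+A, from 71 to 172 in iP+A and from 447 to 714 in iGPA, and of the 7 genes still 0 were called. The all-gene counts also moved with single libraries. They ran from 8 (without iPou4f3 No Dox replicate 1) to 47 (without iG+P No Dox replicate 2) for iG+P, against 35 as reported, from 18 (without iAtoh1 Dox replicate 2) to 108 (without iP+A No Dox replicate 2) for iP+A, from 223 to 768 for iG+A (without its No Dox replicate 1 or 2), and from 264 (without iGPA No Dox replicate 2) to 520 (without iAtoh1 No Dox replicate 2) for iGPA.

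Promoter windows are shown for Bcl11b, Nr2f2 and Nr2f1, the genes that rose past the threshold in 3 or more lines. RefSeq start sites on GRCm38.p6, covering 250 bases before to 50 after the start, were held for Bcl11b, Nr2f2, Nr2f1, Emx2 and Prdm16, with 2 windows for Nr2f1. They were searched on both strands for 4 motifs, which share no bases in a match here: CAGCTG and CAGATG, E-boxes of the kind bound by Atoh1, AAATCA, a Gfi1-type core, and ATTAAT, a POU-type core. Capitals mark the matches, written as they read on the gene's strand (TGATTT is AAATCA on the other strand).
Bcl11b, chr12:108003365-108003664, minus strand: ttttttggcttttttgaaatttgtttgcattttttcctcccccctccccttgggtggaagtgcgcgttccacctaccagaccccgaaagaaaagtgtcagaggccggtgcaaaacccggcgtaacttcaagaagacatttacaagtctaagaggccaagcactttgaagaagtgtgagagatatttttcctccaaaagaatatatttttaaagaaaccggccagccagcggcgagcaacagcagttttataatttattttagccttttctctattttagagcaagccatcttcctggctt
Nr2f2, chr7:70366697-70366996, minus strand: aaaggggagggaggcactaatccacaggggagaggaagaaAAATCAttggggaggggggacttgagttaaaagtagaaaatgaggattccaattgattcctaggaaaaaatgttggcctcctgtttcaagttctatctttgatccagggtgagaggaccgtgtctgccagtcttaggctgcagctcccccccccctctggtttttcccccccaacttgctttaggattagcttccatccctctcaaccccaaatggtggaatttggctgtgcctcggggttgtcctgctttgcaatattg
Nr2f1, chr13:78198824-78199123, minus strand: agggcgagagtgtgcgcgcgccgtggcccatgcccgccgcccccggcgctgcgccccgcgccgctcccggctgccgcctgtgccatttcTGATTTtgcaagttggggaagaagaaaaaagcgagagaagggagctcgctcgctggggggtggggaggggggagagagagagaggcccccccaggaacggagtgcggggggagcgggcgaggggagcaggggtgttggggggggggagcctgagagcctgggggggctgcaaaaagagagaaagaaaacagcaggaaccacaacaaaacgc
Nr2f1, chr13:78196400-78196699, minus strand: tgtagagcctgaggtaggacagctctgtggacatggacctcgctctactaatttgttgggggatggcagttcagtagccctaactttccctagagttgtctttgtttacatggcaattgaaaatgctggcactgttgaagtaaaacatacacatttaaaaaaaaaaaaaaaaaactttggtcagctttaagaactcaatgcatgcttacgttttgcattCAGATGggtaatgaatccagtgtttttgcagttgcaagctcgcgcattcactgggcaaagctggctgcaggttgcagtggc
The Bcl11b, Emx2 and Prdm16 windows held none of these letters. The Nr2f2 window and the first Nr2f1 window held AAATCA once each, as did 4598 of 32851 promoter windows, and the second Nr2f1 window held CAGATG once, as did 17.2%. CAGCTG was in 16.3% of all windows and ATTAAT in 4.75%. GC content was 43.0% for Bcl11b and 49.7% for Nr2f2, and the Nr2f1 windows had 68.0% and 43.0%, against a median of 52.7% over all windows.

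Nr2f2 (chr7:77496832-77511621, minus strand, NCBIM37) had its highest mean Dox levels in the lines that carried Atoh1. Untreated EBs held 232 to 466 normalized counts. Dox libraries reached 2596 and 1941 in iG+A, 1094 and 1712 in iGPA, 1063 and 986 in iAtoh1, and 765 and 850 in iP+A. The remaining Dox groups lay lower, with 769 and 581 in iGfi1, 531 and 550 in iG+P, and 364 and 375 in iPou4f3. iP+A and iGfi1 were the only neighbours in this order that overlapped.

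The rise of Nr2f2 was past the threshold in iG+A (log2 fold change 2.29 ± 0.23, SE, adjusted p = 5.24e-07), iGPA (2.13 ± 0.23, adjusted p = 7.36e-07) and iAtoh1 (1.67 ± 0.23, adjusted p = 5.35e-05). Without iAtoh1 No Dox replicate 2 the iAtoh1 value was 1.34, under the required size. iP+A, at 1.48 ± 0.23 (adjusted p = 0.000131), lay just under that size and passed without iP+A No Dox replicate 2 (1.62) or Dox replicate 1 (1.55). Changes in iG+P (1.05, adjusted p = 0.00171) and iGfi1 (0.91, adjusted p = 0.00782) were smaller, and Pou4f3 alone gave 0.04 (95% confidence interval -0.45 to 0.53).

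Adding Atoh1 gave Nr2f2 differences of 1.38 on Gfi1 (adjusted p = 0.00522), 1.44 on Pou4f3 (adjusted p = 0.0194) and 1.08 on Gfi1 with Pou4f3 (adjusted p = 0.0324), each with an SE of 0.33. None reached the required size of 1.5. The first passed without iGfi1 No Dox replicate 2 (1.55), iGfi1 Dox replicate 1 (1.58) or iG+A Dox replicate 2 (1.59), and the second without iP+A No Dox replicate 2 (1.58) or iPou4f3 No Dox replicate 1 (1.59). Adding Gfi1 gave 0.61 on Atoh1 (adjusted p = 0.229), 1.01 on Pou4f3 (adjusted p = 0.0396) and 0.65 on Pou4f3 with Atoh1 (adjusted p = 0.182), also short of that size. Adding Pou4f3 gave between -0.20 and 0.14, with confidence intervals inside -0.89 to 0.84.

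Nr2f1 (chr13:78328234-78339018, minus strand, NCBIM37) had the highest level in iG+A. It ranged from 20.4 to 63.9 normalized counts in No Dox libraries and stood at 405 and 347 in iG+A Dox. Next came iP+A Dox with 98.7 and 144, iGfi1 Dox with 147 and 81.4, iGPA Dox with 93.1 and 118, and iAtoh1 Dox with 96.9 and 57.7. These 4 groups overlapped one another in order and iG+A overlapped none of them. iG+P Dox (54.0 and 39.0) and iPou4f3 Dox (45.4 and 33.3) stayed within the No Dox range.

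Nr2f1 rose past the threshold in iG+A (2.83 ± 0.41, SE, adjusted p = 2.91e-05), iP+A (2.14 ± 0.41, adjusted p = 0.000885), iGPA (1.81 ± 0.41, adjusted p = 0.0015) and iGfi1 (1.66 ± 0.41, adjusted p = 0.00625). The iGPA call was lost under quantile normalization (1.45). The iGfi1 call was lost without iGfi1 No Dox replicate 2 (1.06) and without iGfi1 Dox replicate 1 (1.24). The annotation places the noncoding A830082K12Rik on the plus strand over 1741 bases of Nr2f1, of which 103 lie in exons of both. Gm8327, noncoding on the same strand, shares 20 exon bases with Nr2f1. The paper gives default settings for kallisto and names no strand option, so reads from these shared bases cannot be told apart. Nr2f1 and Nr2f2 encode related receptors, and only 39 of the 4524 distinct 31-base words of Nr2f1 transcripts also occur in Nr2f2.

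Adding Gfi1 to Atoh1 raised the Nr2f1 effect by 1.94 ± 0.58 (adjusted p = 0.0302), and adding Atoh1 to Pou4f3 raised it by 2.33 ± 0.58 (adjusted p = 0.0339). On Pou4f3, adding Gfi1 gave 0.59 (95% confidence interval -0.63 to 1.82), and on Pou4f3 with Atoh1 it gave -0.33 (-1.55 to 0.90). Both calls rest on few libraries. The call for adding Gfi1 to Atoh1 was lost in 5 of 8 fits that left out 1 library (iAtoh1 No Dox replicate 1, iAtoh1 Dox replicate 2, iG+A No Dox replicate 1, and iG+A Dox replicate 1 or 2), with values of 1.57 to 2.05 and adjusted p of 0.0536 to 0.123. The call for adding Atoh1 to Pou4f3 was lost in 7 of 8, the exception being iP+A No Dox replicate 2, with values of 1.97 to 2.60 and adjusted p of 0.0582 to 0.142. On Gfi1, adding Atoh1 gave 1.17 ± 0.58 (adjusted p = 0.145), which passed without iGfi1 No Dox replicate 2 (1.78), and on Gfi1 with Pou4f3 it gave 1.41 (adjusted p = 0.114). Adding Pou4f3 gave 1.24 on Atoh1 (adjusted p = 0.272), -1.26 on Gfi1 (adjusted p = 0.284) and -1.02 on Gfi1 with Atoh1 (adjusted p = 0.367). With only the compared lines in the fit, the calls for Nr2f1 in iGfi1 and for both differences were lost (adjusted p of 0.0772, 0.0702 and 0.0805).

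Over the 14 group means of log2 values Nr2f1 and Nr2f2 were the most alike pair of the 7 genes (Pearson r = 0.931, a description over groups that share lines). Neural markers were read beside both genes. Of 6 neural markers, 3 were higher with Dox in iAtoh1, 3 in iG+A, 4 in iP+A and 4 in iGPA, 2 in iG+P and 2 in iPou4f3 (1 without iPou4f3 No Dox replicate 1 or Dox replicate 2). In iGfi1, where Nr2f1 rose, limma called 0 of 6, with 2 at an unadjusted p under 0.05. Their summed level was 1913 and 1116 in iG+A Dox, where Nr2f1 and Nr2f2 were highest, and 16594 and 12323 in iP+A Dox. Their part in the Nr2f1 and Nr2f2 values was not tested.

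**Figure D4:**
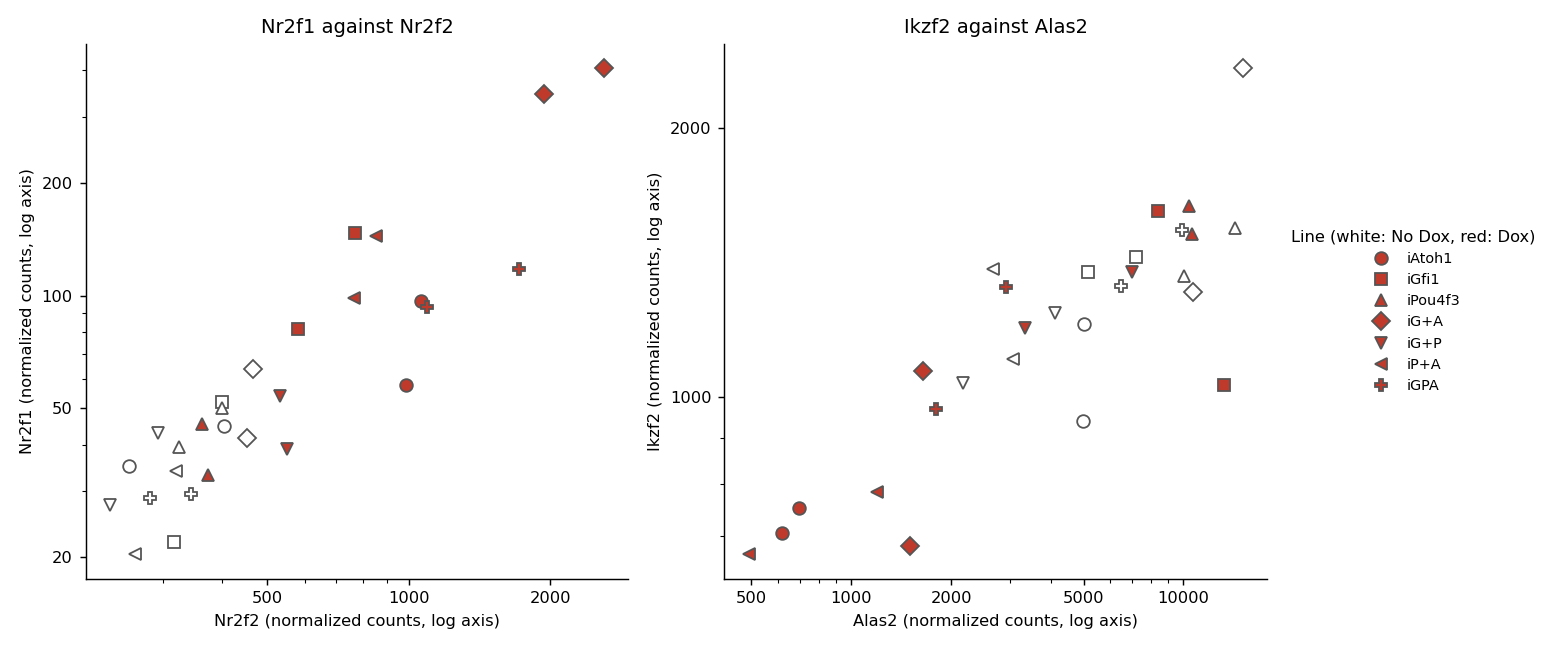
Left, Nr2f1 against Nr2f2, and right, Ikzf2 against the haem synthesis gene Alas2, as normalized counts on log axes; each point is 1 of 28 libraries, symbols give the line, white is No Dox and red is Dox. iG+A Dox stands apart in the left panel, and in the right panel the iAtoh1 and iP+A Dox libraries lie at the low end of both genes.

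Tbx2 (chr11:85646053-85655450, plus strand, NCBIM37), the inner HC factor, had estimates of both signs. In iG+P it went from 4049 and 3245 normalized counts in No Dox to 701 and 931 with Dox. The groups did not overlap, and the fall of 2.16 on the log2 scale (SE 0.34, adjusted p = 6.46e-05) was the only Tbx2 change past the threshold in a line. Values also lay lower with Dox in iGPA (2577 and 1858 against 1187 and 1038, log2 fold change -0.98, adjusted p = 0.024) and iGfi1 (2733 and 2113 against 928 and 1703, -0.93, adjusted p = 0.0481), both short of the required size.

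In lines with Atoh1 or Pou4f3 but no Gfi1, Tbx2 estimates were positive. Dox libraries held 4740 and 4965 normalized counts in iP+A, 3128 and 6414 in iAtoh1, and 2792 and 3019 in iPou4f3. The No Dox libraries held 3611 and 3060, 1772 and 3577, and 1334 and 2069. None passed: the log2 fold changes were 0.55 (adjusted p = 0.26), 0.83 (adjusted p = 0.0837) and 0.80 (adjusted p = 0.207), and the replicates of iAtoh1 overlapped between groups. Same-numbered iAtoh1 libraries rose 1.77-fold and 1.79-fold. With the replicate number as a block limma gave an adjusted p of 0.0218 for iAtoh1, with the change of 0.83 still short of the required size. In iG+A the change was -0.18 (95% confidence interval -0.89 to 0.53).

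Adding Gfi1 lowered the Tbx2 effect on 2 of 3 backgrounds. The difference was -2.97 ± 0.48 (SE, adjusted p = 0.000318) on Pou4f3 and -1.52 ± 0.48 (adjusted p = 0.0331) on Pou4f3 with Atoh1. On Atoh1 it was -1.01 ± 0.48 (adjusted p = 0.168), which passed without iAtoh1 No Dox replicate 2 (-1.52) or iAtoh1 Dox replicate 1 (-1.53). The second difference was lost in 6 of 8 fits without 1 library (iGPA No Dox replicate 1, iP+A No Dox replicate 2, and each Dox replicate of iGPA and iP+A), with values of -1.62 to -1.29 and adjusted p of 0.0582 to 0.118. Rescaling by the 75th percentile (-1.48) and a fit without the variance trend (adjusted p = 0.0529) ended it too. Mean untreated Tbx2 was highest in iG+P (3647 normalized counts) and lower in iPou4f3 (1702), and the level of Pou4f3 differed between these lines (above). Their part in the difference of -2.97 was not tested.

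Markers of mesoderm derivatives also differed in these lines. Of 7 mesenchyme markers 4 were lower with Dox in iG+P, their sum going from 58233 and 61606 to 9325 and 10849 normalized counts, and 2 of 3 cardiac markers were lower there, with sums of 744 and 1342 against 265 and 345. In iGPA 4 of 7 mesenchyme markers were lower too and 1, Thy1, was higher. In iAtoh1, where the Tbx2 estimate was positive, 2 of 7 were lower and the sum went from 44870 and 71862 to 25565 and 38064. In iGfi1 Col1a1 and Col1a2 were lower (sums of 92132 and 76684 without Dox, 28845 and 36368 with Dox), as they were in iG+A (101454 and 84144, then 31140 and 15436). In iP+A Col1a1 and Prrx1 were lower and Thy1 higher, and Nkx2-5 was lower in iGfi1 too. In iPou4f3 limma called 0 of 7 mesenchyme markers (1 higher without iPou4f3 No Dox replicate 2), with 2 at an unadjusted p under 0.05. The mesenchyme count in iAtoh1 or iP+A went to 0 or 1 without any 1 of that line's 4 libraries, and that in iGfi1 to 1 without iGfi1 Dox replicate 1. The Nkx2-5 call in iGfi1 was lost without any 1 of the 4 iGfi1 libraries. The cardiac count in iG+P went to 1 without iG+P No Dox replicate 1 and to 0 without No Dox replicate 2 or Dox replicate 1. Endothelial, epithelial and endoderm lists also had lower genes with Dox in iG+P, and none higher. These were Pecam1 and Tek of 4 endothelial markers, Krt8 and Krt18 of 5 epithelial markers, and Sox17 and Foxa2 of 5 endoderm markers. Pecam1, Tek, Krt8 and Krt18 were lower in iAtoh1 as well. None of these markers was at 0 in all libraries, and their part in the Tbx2 values was not tested. Tbx3, the closest paralogue, passed in none of the 7 lines (-0.84 to 0.58), whereas Tbx4, a limb factor, fell in all 4 lines with Gfi1, with log2 fold changes of -4.56 in iG+P, -4.12 in iG+A, -2.61 in iGPA and -1.84 in iGfi1. Values were also negative without Gfi1, at -1.49 in iAtoh1 (adjusted p = 0.0198), -1.42 in iP+A (adjusted p = 0.0233) and -0.71 in iPou4f3 (adjusted p = 0.425), short of the required size. Tbx5, a heart and limb factor, fell by 2.57 in iG+P and rose by 2.38 in iAtoh1. Tbx1 rose by 5.25 ± 1.14 (SE, adjusted p = 0.00127) in iG+A and passed in no other line.

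Emx2 (chr19:59533180-59539847, plus strand, NCBIM37) was expressed at low levels, with 38.6 to 123 normalized counts in No Dox libraries. In iG+A it had 92.8 and 123 without Dox and 14.9 and 56.1 with Dox, and fell by 1.84 on the log2 scale (SE 0.51, adjusted p = 0.00742). This call depended on single libraries. It was lost without iG+A No Dox replicate 2 (-1.64) or iG+A Dox replicate 1 (-0.92), and without iG+A Dox replicate 2 the value was -2.76. Against all 14 untreated libraries together it was also lost (-1.42), as it was with only the iG+A libraries in the fit (adjusted p = 0.111).

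Estimates for Emx2 were negative in every other line with Atoh1 or Gfi1. iAtoh1 went from 77.2 and 50.6 to 21.0 and 24.6 normalized counts (log2 fold change -1.42, adjusted p = 0.0512), and iGPA from 61.2 and 113 to 27.6 and 33.3 (-1.43, adjusted p = 0.0285). The iGPA change passed without iGPA No Dox replicate 1 (-1.86) and under quantile normalization (-1.76, adjusted p = 0.00984), and the iAtoh1 change passed against all 14 untreated libraries (-1.76, adjusted p = 0.00101). iP+A (-0.78), iGfi1 (-0.61) and iG+P (-0.55) had confidence intervals that spanned 0. In iPou4f3 the estimate was positive, from 100.5 and 92.6 to 161 and 172 (0.78, 95% confidence interval -0.28 to 1.85). iPou4f3 Dox was also the highest Dox group, with no overlap with the next, and iAtoh1 Dox the lowest.

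No difference between lines passed for Emx2. Adding Gfi1 gave between -1.33 and -0.42 and adding Atoh1 between -1.56 and -0.88, each with an SE of 0.72. On Gfi1, the value for adding Atoh1 was -1.23, and it passed without iG+A Dox replicate 2 (-2.16). Emx2 is also known from kidney and genital tract. Of 4 urogenital markers, Wt1 was lower with Dox in iG+A, iG+P, iP+A and iGPA while Osr1 and Lhx1 were higher in iG+A, iG+P and iGPA. Each of these lines lost at least 1 of these calls without a single library, namely iG+A No Dox replicate 1 or Dox replicate 2, iG+P No Dox replicate 2, iP+A No Dox replicate 1 or Dox replicate 2, and iGPA No Dox replicate 1 or Dox replicate 2. Their sum in iG+A was 893 and 564 without Dox and 720 and 672 with Dox, and their part in the Emx2 values was not tested.

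Ikzf2 (chr1:69577788-69732534, minus strand, NCBIM37), the outer HC factor, was detected throughout and passed the threshold in no line. It ranged from 939 to 2336 normalized counts without Dox and from 667 to 1639 with Dox. In iG+A it had 2336 and 1311 without Dox and 1070 and 682 with Dox (log2 fold change -1.03 ± 0.26, SE, adjusted p = 0.00348). In iP+A it had 1392 and 1105 against 667 and 784 (-0.78 ± 0.26, adjusted p = 0.0328). Groups in both lines were separate, but the changes were short of the required size. The iG+A change would pass if a log2 change of 1 were enough.

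The remaining Ikzf2 estimates were -0.55 in iAtoh1 (adjusted p = 0.132), -0.34 in iGPA (adjusted p = 0.303), -0.12 in iGfi1, 0.12 in iPou4f3 and 0.18 in iG+P. For the last 3 the widest confidence interval limits were -0.66 and 0.72, so a rise of the required size lay outside them. Every pair of neighbouring Dox groups in the order of Ikzf2 levels overlapped. Differences between lines ran from -0.91 to 0.70 for a further factor, and none passed.

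The genes most like Ikzf2 over the 14 group means were red cell genes: Alas2, the haem synthesis enzyme of red cells (Pearson r = 0.938), and the alpha globin gene Hba-a2 (r = 0.928), followed by the kinase gene Tbk1 (r = 0.924). They were taken from 16746 named genes by that measure alone, over groups that share lines. Alas2 had 617 and 696 normalized counts in iAtoh1 Dox and 492 and 1196 in iP+A Dox, where Ikzf2 was lowest. In iPou4f3 Dox, where Ikzf2 was highest among Dox groups, Alas2 had 10583 and 10405. In iGfi1 Dox, Alas2 had 13242 and 8374 while Ikzf2 had 1033 and 1616.

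Of 6 blood markers, none at 0, 4 were lower with Dox in iAtoh1, 3 in iG+A, 3 in iP+A and 2 in iGPA. In iG+P 1 was lower, in iGfi1 1 was higher and in iPou4f3 0 passed in limma, with 1 of 6 at an unadjusted p under 0.05. The count went to 1 in iP+A without iP+A Dox replicate 1, to 1 in iGPA without iGPA No Dox replicate 2 or Dox replicate 1, to 0 in iG+P without iG+P No Dox replicate 2 or Dox replicate 1, and to 0 in iGfi1 without iGfi1 No Dox replicate 1. The list's median was -2.48 in iAtoh1 and 0.01 in iPou4f3. Their sum in iG+A was 335357 and 253780 normalized counts without Dox and 33167 and 38914 with Dox. In iPou4f3 it was 338533 and 268845 against 188551 and 184986. The part of blood cells in the Ikzf2 values was not tested. Ikzf1, the paralogue known from lymphoid cells, fell by 2.66 on the log2 scale in iAtoh1 and rose by 1.55 in iGfi1.

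Prdm16 (chr4:153690234-154010982, minus strand, NCBIM37) passed the threshold in no line. No Dox libraries held 24.5 to 82.6 normalized counts and Dox libraries 24.8 to 123. It was highest in iGPA, at 84.6 and 123 with Dox against 34.0 and 45.8 without (log2 fold change 1.35 ± 0.46, SE, adjusted p = 0.0232). This was short of the required size and passed without iGPA No Dox replicate 2 (1.56) or Dox replicate 1 (1.61). By fold change the next were iG+A (42.8 and 51.9 against 83.0 and 77 with Dox, 0.75, adjusted p = 0.206) and iG+P (24.5 and 41.9 against 37.5 and 73.7, 0.70, adjusted p = 0.269). In iP+A the estimate was 0.00 (95% confidence interval -0.97 to 0.97), and its No Dox replicates, 31.3 and 82.6, lay far apart. Noncoding genes lie on the other strand within the span of Prdm16, but share 0 bases with its annotated exons. Mecom, the related PR domain gene, fell in iGfi1 by 2.16 and in iG+P by 1.62 on the log2 scale, while Prdm16 had 57.6 and 43.1 normalized counts without Dox and 80.6 and 76.0 with Dox in iGfi1.

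The iGPA effect was also set against the iAtoh1 effect, since these lines differ by Gfi1 and Pou4f3 together. Past the threshold were 3 of 7 genes, where 9.03% of all tested genes were. Bcl11b was higher by 2.53 ± 0.34 (SE, adjusted p = 3.5e-05), Prdm16 by 1.89 ± 0.65 (adjusted p = 0.0486) and Tbx2 was lower, at -1.81 ± 0.48 (adjusted p = 0.0111). The Prdm16 difference was lost in 6 of 8 fits without 1 library (iAtoh1 No Dox replicate 1, iAtoh1 Dox replicate 2 and every iGPA library), with values of 1.36 to 2.15. It was also lost with no filter (adjusted p = 0.0595), under quantile normalization (1.49, adjusted p = 0.104), without the variance trend (adjusted p = 0.0544) and with only both lines in the fit (adjusted p = 0.101). The Tbx2 difference was lost without iAtoh1 No Dox replicate 1 (-1.30), iAtoh1 Dox replicate 2 (-1.29) or iGPA No Dox replicate 1 (-1.57), and with only both lines in the fit (adjusted p = 0.0742). Nr2f2 differed by 0.46 (95% confidence interval -0.23 to 1.15).

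Genes that mark the subtypes were read beside their regulators. Over all tested genes, the share higher with Dox ran from 1.47% in iPou4f3 to 8.65% in iGPA and the share lower from 0.606% in iPou4f3 to 5.36% in iG+P, and the median log2 fold change lay between -0.03 and 0.02. Of 8 outer HC genes 7 were tested, the oncomodulin gene Ocm being under the filter. With Dox 4 were higher in iP+A, 3 in iG+P, 2 each in iAtoh1, iG+A and iGPA, 1 in iPou4f3 and 0 in iGfi1, where limma gave 2 of 7 at an unadjusted p under 0.05. The 2 genes in iAtoh1, iG+A and iGPA were Insm1 and Ppp1r17 each time, and both were among the 4 in iP+A. The count went to 1 in iG+P without iG+P Dox replicate 2, to 2 in iP+A without iP+A Dox replicate 1, to 2 in iPou4f3 without iPou4f3 No Dox replicate 2 and to 1 in iGfi1 without iGfi1 No Dox replicate 2. The median of the list ran from 0.05 in iG+A to 1.58 in iP+A. Insm1, a zinc finger factor of early outer HCs and also of neural progenitors, rose by 8.93 in iGPA, 8.17 in iP+A and 7.86 in iG+A on the log2 scale. Neural markers were higher in the same lines (above), with a summed level of 16594 and 12323 normalized counts in iP+A Dox against 377 and 579 without Dox, and their part in the outer HC gene values was not tested. Slc26a5, the outer HC motor protein prestin, passed in none of the 7 lines, its log2 fold changes lying between -1.34 and 0.25.

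Of 6 inner HC genes 3 were higher in iGPA, 2 each in iG+A, iG+P and iP+A, 1 in iPou4f3 and 0 in iAtoh1 and iGfi1, where limma gave 0 and 1 of 6 at an unadjusted p under 0.05. The iG+A count went to 1 without iG+A Dox replicate 2. Their median ran from -0.25 in iAtoh1 to 1.88 in iGPA. Slc17a8, the vesicular glutamate transporter of inner HCs, reached 748 and 926 normalized counts in iG+P Dox against 10.1 and 3.06 without Dox (log2 fold change 6.95 ± 0.85, SE, adjusted p = 4.49e-06). It also rose in iGPA (5.06, adjusted p = 8.98e-05) and iG+A (3.23, adjusted p = 0.00532). Tbx2 fell past the threshold in the first of these lines and not in the others. Otof, which acts in transmitter release, rose by 6.48 in iG+P, 5.07 in iGPA, 4.90 in iPou4f3 and 3.89 in iP+A. It is also among the 6 general HC markers above, so the counts of both lists share it. In iPou4f3 Otof was the only call of either list. Of 6 vestibular genes 5 were tested. In iG+A Spp1 and Mapt were higher and Sox2 lower, in iP+A Spp1 and Sox2 were lower, and in the other 5 lines 0 passed in limma, with 1 to 3 of 5 at an unadjusted p under 0.05. The vestibular median lay between -0.92 in iPou4f3 and 0.61 in iGPA. These calls rest on few libraries. The 2 lower genes in iP+A went to 0 without iP+A No Dox replicate 2 or Dox replicate 1. In iG+A the 2 higher genes went to 1 without either No Dox replicate and to 0 without Dox replicate 2, and the 1 lower gene went to 0 without No Dox replicate 2 or Dox replicate 1. Sox2 is a gene of pluripotent cells too, and of 4 pluripotency markers Nanog and Esrrb were lower with Dox in iG+A and Nanog, Zfp42 and Esrrb in iP+A. These calls too went to 0 without single libraries, in iG+A without either No Dox replicate or Dox replicate 1 and in iP+A without No Dox replicate 2 or Dox replicate 1. Nanog and Esrrb were lower in iGPA as well, where Sox2 did not pass. These iGPA calls also depended on single libraries, namely iGPA No Dox replicate 1 and both Dox replicates. In iP+A No Dox replicate 2 the summed level of the vestibular genes was 5996 against 2182 in replicate 1. The part of pluripotent cells in the Sox2 values was not tested.

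Of 10 genes of bundle orientation and planar polarity 3 were higher in iGPA, 3 in iG+A, 2 in iP+A, 1 in iG+P, 1 in iPou4f3 and 1 in iGfi1, and 1 was lower in iAtoh1 and 1 in iGfi1, with medians of -0.10 in iGfi1 to 0.77 in iGPA. The counts of 1 were lost without 1 library in iAtoh1 (No Dox replicate 1 or Dox replicate 2), iPou4f3 (No Dox replicate 1), iG+P (either No Dox replicate or Dox replicate 1) and iGfi1 (any of its 4, in both directions). Stk32a, a kinase gene that is repressed by EMX2 in the macula, rose by 4.80 ± 0.65 in iG+A (adjusted p = 1.24e-05), the line where Emx2 fell. It also rose in iGPA (2.53), iG+P (2.04) and iGfi1 (1.89), where Emx2 did not pass, and it fell by 2.01 in iAtoh1, where the Emx2 estimate was negative as well. The Emx2 call in iG+A depended on single libraries (above), and the part of Emx2 in the Stk32a values was not tested. Gpsm2, Gnai3 and Vangl2 passed in none of the 7 lines. Of 12 paralogues of the 7 genes, at most 3 passed in a line, and the median lay between -0.14 in iG+A and 0.37 in iGPA.

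**Figure D5:**
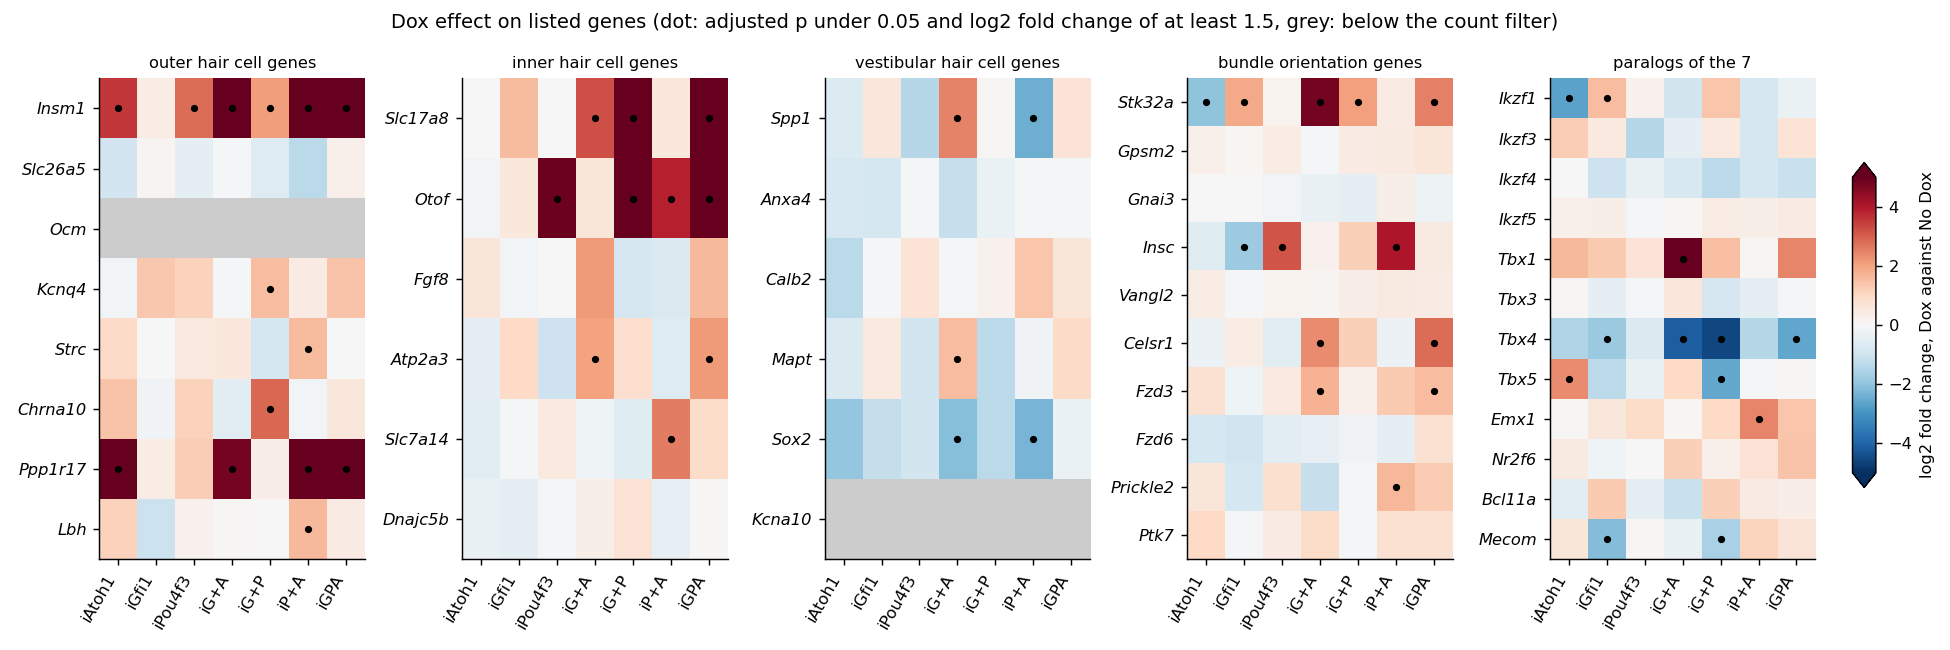
Log2 fold change of Dox against No Dox (colour, limited to 5 in either direction) for listed genes (rows) in the 7 lines (columns); dots mark genes past the threshold and grey marks genes under the count filter. Insm1 has a dot in 6 lines, and Slc26a5 and Gpsm2 in none.

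Beyond Ikzf2, the gene most like each regulator over the 14 group means was Inha for Bcl11b (r = 0.955), Dcc for Nr2f2 (r = 0.962), Hmx3 for Nr2f1 (r = 0.931), Mtch1 for Tbx2 (r = 0.960), Galnt10 for Emx2 (r = 0.958) and 2900041M22Rik for Prdm16 (r = 0.917). Inha, an inhibin subunit gene, had 756 and 783 normalized counts in iG+P Dox, the group where Bcl11b was highest. Among the 7 genes themselves, Ikzf2 and Emx2 had r = 0.848, and Tbx2 and Bcl11b had r = -0.732.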

How the data were processed

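Libraries were prepared from 1 µg of total RNA with an mRNA kit. The authors trimmed reads with cutadapt, quantified them with kallisto on mm9 UCSC knownGene transcripts, imported gene sums with tximport and applied DESeq2 normalization. The values they deposited are log2 of the normalized count plus 1 for 19421 genes by Entrez ID in 28 libraries. Here 19314 IDs were named from RefSeq, and positions came from GENCODE M1 on NCBIM37. Whole reads could not be recovered, since 70.2% to 79.4% of normalized counts no higher than 20 fell on a whole step (tolerance 0.05), so no count test was run.

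The 16837 genes that reached 10 normalized counts in 2 or more libraries were fitted with limma 3.58.1 (R 4.3.3, variance trend on the mean) over 14 groups and 14 residual degrees of freedom, and p-values were adjusted by Benjamini-Hochberg within each contrast. The threshold was an adjusted p below 0.05 and a log2 fold change, up or down, of 1.5 or more. The fit was tested on simulated data. Intervals are 95% confidence intervals of the fit. With 2 libraries per group, their number limits the precision, the spread between clones and counting error were not separated, and only levels within a gene are compared.

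The 7 genes and the gene lists were chosen with earlier results of these data known, and support nothing as independent evidence. 1 gene of the bundle orientation list is not reported here. Besides the 7 genes, the text names the induced factors, genes of the lists, and for each of the 7 the genes with the highest Pearson r over 14 group means. The reported fit had no replicate block. In an alternative fit with a block, equal replicate numbers were treated as pairs of Dox and No Dox libraries, because deviations of same-numbered libraries correlated in every line, most in iP+A (0.246) and iAtoh1 (0.238) and least in iG+P (0.103), the values for iPou4f3, iG+A, iGPA and iGfi1 being 0.231, 0.158, 0.152 and 0.127. Alternatives covered the pseudocount, the filter, the normalization, the replicate block, the libraries fitted, the control group, the variance trend, the size of change and each library left out.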

Additional observations from a re-analysis of the deposited data

Results flagged for a closer look

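Results are listed here because the difference between the Dox effects of lines was itself past the threshold in limma (adjusted p under 0.05 and a difference of at least 1.5 on the log2 scale). For Bcl11b this held for iG+A minus iAtoh1 (2.03), iG+P minus iPou4f3 (2.22), iGPA minus iP+A (2.37), iG+P minus iGfi1 (2.89) and iGPA minus iAtoh1 (2.53). For Tbx2 it held for iG+P minus iPou4f3 (-2.97), iGPA minus iP+A (-1.52) and iGPA minus iAtoh1 (-1.81), for Nr2f1 for iG+A minus iAtoh1 (1.94) and iP+A minus iPou4f3 (2.33), and for Prdm16 for iGPA minus iAtoh1 (1.89). Differences that name the same line share its libraries.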

How the results depend on the processing

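Over 11 other settings and each of 28 libraries left out, none of the 23 calls for the 7 genes changed sign. Of the 124 results that were not called, 40 changed sign in at least 1 fit, each with an estimate of at most 0.65 in size as reported. The Bcl11b calls, the Nr2f2 calls in iG+A and iGPA, the Nr2f1 calls in iG+A and iP+A, and the Tbx2 call in iG+P with its difference from iPou4f3 held in every alternative run. With only the groups compared in the fit, which leaves fewer degrees of freedom, the number of the 7 genes past the threshold went to 0 in iGfi1, 3 in iG+A, 1 for iG+A minus iAtoh1, 0 for iP+A minus iPou4f3 and 1 for iGPA minus iAtoh1. Over all genes that setting took the count from 811 to 774 in iGfi1, 2071 to 1654 in iG+A, 1521 to 1290 for iGPA minus iAtoh1, and by over 1.5 times from 910 to 563 in iAtoh1, 350 to 135 in iPou4f3, 1157 to 718 for iG+A minus iAtoh1, 468 to 249 for iP+A minus iAtoh1, 371 to 183 for iGPA minus iG+A, 271 to 173 for iP+A minus iPou4f3, and 504 to 201 and 71 to 33 for the departures of iG+A and iP+A from sums. A pseudocount of 5 took that of iG+P from 35 to 64. The number of the 7 genes for iGPA minus iP+A went to 1 with rescaling by the 75th percentile and to 1 without the variance trend, and that in iAtoh1 to 2 against all 14 untreated libraries, for which the cause was not tested. A required log2 change of at least 1 gave 1 in iPou4f3, 2 in iP+A, 5 in iG+A (Ikzf2 added) and iGPA, 3 in iG+P and for iG+P minus iPou4f3 (Nr2f2 added to each), 2 for iG+A minus iGfi1, 2 for iP+A minus iPou4f3 and 1 for iGPA minus iG+P, and over all genes 3119 in iG+A (2071 as reported), 1490 in iAtoh1 (910), 2743 in iG+P (1770), 1647 in iGfi1 (811), 1884 in iP+A (1227), 2189 for iG+A minus iGfi1 (1438), 3438 in iGPA (2350), 494 in iPou4f3 (350), 1908 for iG+P minus iPou4f3 (1284), 364 for iP+A minus iPou4f3 (271) and 1468 for iGPA minus iG+P (994), of 16837 tested.

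Leaving out each replicate in turn gave 0 to 1 genes in iAtoh1, iGfi1 and iPou4f3, 3 to 4 in iG+A and iGPA, 2 to 2 in iG+P and 1 to 2 in iP+A. For differences it gave 1 to 3 for iG+A minus iAtoh1, iGPA minus iP+A and iGPA minus iAtoh1, 0 to 2 for iG+A minus iGfi1 and iP+A minus iPou4f3, 2 for iG+P minus iPou4f3, 1 for iG+P minus iGfi1, and 0 for the rest, departures from sums included. Without 1 library 8 of 23 calls were lost and 11 results gained a call, all named beside their values except Prdm16 for iGPA minus iP+A (2.03 without iP+A No Dox replicate 1). Over all genes the count went from 811 to 514 in iGfi1 without iGfi1 Dox replicate 1, from 350 to 189 and 224 in iPou4f3 without its No Dox replicate 1 or Dox replicate 2, and from 271 to 131 for iP+A minus iPou4f3 without iP+A Dox replicate 1, and for the other single effects and differences it stayed within 1.5 times.

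With the replicate number of each line as a block, 12 of 49 Dox effects and 11 of 98 differences passed, as without it, and no call changed. For example, Bcl11b in iG+P remained at 3.67 (adjusted p = 1.24e-07) under the block. Of counts for the subtype, orientation and paralogue lists, 717 of 770 under other settings and 243 of 280 without 1 library stayed within 1.5 times. The 37 that 1 library moved are given beside the lists, except 11 for paralogues (counts of 0 to 2). Of counts for 7 marker lists, 1034 of 1078 and 345 of 392 stayed within 1.5 times, and those named in the text are given there where 1 library moved them. With 2 clones per group the SE of a Dox effect ran from 0.23 for Nr2f2 to 0.51 for Emx2.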
